A study of Mus musculus with 21 samples.

Results

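Transcripts of the mouse Fc gamma receptors, the cell-surface receptors for immunoglobulin G, were examined in the neocortex of rNLS8 mice and wild-type mice by bulk RNAseq. The members were the genes of the activating receptors Fcgr1, Fcgr3 and Fcgr4, of the inhibitory receptor Fcgr2b, and of the signalling chain Fcer1g that the activating receptors share. They were taken by gene symbol and made up 5 of the 48474 gene entries of the count table. Of these members, 4 were among the 18248 genes that passed the filter on low counts, while Fcgr4, with 163 counts over all mice, did not.

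The data covered 21 mice, 11 labelled WT and 10 labelled TG, each a separate mouse. TG mice were bigenic rNLS8 mice, in which the neurofilament heavy chain promoter drives a tTA activator, mostly in neurons, and tTA in turn drives human TDP-43 that lacks its nuclear localization signal. The controls are called WT in the labels and monogenic littermates in the series description, so some may have carried a single transgene. Every mouse had received 350 µg of a control antisense oligonucleotide without a target, in 10 µL into a cerebral ventricle, at 17 to 19 weeks of age. Every mouse was fed doxycycline (200 mg/kg of diet), which keeps the transgene off, until 2 weeks after the injection, and was killed 3 weeks after its withdrawal. Mice belonged to independent cohorts labelled batch A (4 WT and 3 TG mice) and batch B (7 WT and 7 TG mice).

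Activating Fc gamma receptors bind immune complexes and pass the signal through the paired tyrosine motif (ITAM) of the Fcer1g chain, which Src family kinases phosphorylate and which then recruits the kinase Syk. Fcgr2b carries an inhibitory motif (ITIM) of its own, recruits phosphatases such as the one encoded by Inpp5d, and counters the activating receptors on the same cell. In the brain these receptors are known mainly from microglia and other macrophages, where they serve uptake of antibody-coated material.

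Fcgr2b, Fcgr4, Fcgr3 and Fcer1g lie within 274 kb of chromosome 1, and Fcgr1 lies on chromosome 3 (RefSeq, GRCm38.p6). Fcgr1 spans chr3:96282909-96293969 on the minus strand. Fcgr2b spans chr1:170960558-170976071 on the minus strand, Fcgr4 spans chr1:171018926-171029761 on the plus strand, Fcgr3 spans chr1:171051169-171065915 on the minus strand, and Fcer1g spans chr1:171229572-171234349 on the minus strand. The 250 bases before the start site are shown for Fcgr1 and Fcgr4, which had the largest differences between the genotypes, and for Fcgr2b, which had the smallest. They are RefSeq sequences of GRCm38.p6, written in the direction of the gene, at chr3:96293970-96294219 (minus strand), chr1:171018676-171018925 (plus strand) and chr1:170976072-170976321 (minus strand), and capitals mark matches to the motifs described after them.
Fcgr1: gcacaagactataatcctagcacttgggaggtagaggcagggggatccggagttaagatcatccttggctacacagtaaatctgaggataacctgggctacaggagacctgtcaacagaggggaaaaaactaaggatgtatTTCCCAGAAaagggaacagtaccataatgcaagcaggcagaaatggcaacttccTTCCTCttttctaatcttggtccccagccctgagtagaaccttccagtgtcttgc
Fcgr4: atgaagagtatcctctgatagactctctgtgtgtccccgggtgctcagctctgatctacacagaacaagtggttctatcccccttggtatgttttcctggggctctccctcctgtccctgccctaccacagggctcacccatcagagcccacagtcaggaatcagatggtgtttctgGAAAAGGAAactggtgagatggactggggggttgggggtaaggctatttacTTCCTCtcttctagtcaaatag
Fcgr2b: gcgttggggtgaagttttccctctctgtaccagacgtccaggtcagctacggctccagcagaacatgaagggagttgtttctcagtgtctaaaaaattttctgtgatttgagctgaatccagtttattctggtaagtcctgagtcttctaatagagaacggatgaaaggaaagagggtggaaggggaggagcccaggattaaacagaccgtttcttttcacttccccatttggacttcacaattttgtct
The motifs searched on both strands, over 300 bases from 250 before to 50 after the start site, were the interferon gamma activation site TTCNNNGAA, a simplified interferon response pair GAAANNGAA, and the PU.1 core GAGGAA. PU.1 is a transcription factor of the myeloid lineage. The interferon gamma activation site was found in Fcgr1 alone among the members, at positions -109 to -101 (TTCCCAGAA), and 8.3% of all 32851 promoters held such a match. The interferon response pair was found in Fcgr4 alone, at positions -73 to -65 (GAAAAGGAA), against 8.56% of all promoters. The PU.1 core, written TTCCTC where it lies on the opposite strand, was found in Fcgr1 (positions -55 to -50), Fcgr4 (positions -22 to -17) and Fcgr3, and in 28.3% of all promoters. These letters did not occur in the windows of Fcgr2b and Fcer1g. Matches to different motifs did not overlap, and the match in Fcgr3 is the same stretch seen from both of the start sites searched. The bases before these sites, chr1:171059404-171059653 and chr1:171059395-171059644, lie inside the span of Fcgr3. A start at the outer end of that gene was not searched, so presence or absence of a motif in Fcgr3 holds for these windows only. A match is a description of sequence and not of binding.

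Libraries were even in depth, with between 20700912 and 22263809 counts per mouse. Tardbp, the gene for TDP-43, served as a partial check of the labels, as far as reads of the human transgene align to the mouse gene. It was at 2574 ± 207 normalized counts (SD, n = 11) in WT and 4109 ± 951 (SD, n = 10) in TG mice, and 1 TG mouse, T61340, lay within the WT range at 2363. T60303 of batch A was the highest TG mouse in Fcgr3, Fcgr4, Fcgr2b and Fcer1g, and T61340 the next in Fcgr3 and Fcer1g and the highest in Fcgr1. Without T61340 the log2 fold change was 1.01 for Fcgr1, 0.39 for Fcgr3, 0.37 for Fcer1g, 0.29 for Fcgr2b and 1.58 for Fcgr4 without the filter, and the calls were the same. Transcripts of Fcgr2b and Fcgr3 share 44 stretches of 100 bases, which is 1.26% of those of Fcgr2b and 3.53% of those of Fcgr3. Fcgr2b also shares between 4 and 19 such stretches with each of 6 other genes, and Fcgr1, Fcgr4 and Fcer1g share none with another gene. Fcgr2b overlaps the antisense gene Gm38204, and whether reads were counted by strand is not given in the sources used here.

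The first question was how strongly each member was expressed in the cortex of wild-type mice. Normalized counts (counts scaled to the mean effective library size of all mice) were divided by the transcript length in kilobases so that genes could be compared. On this scale Fcer1g, the shared chain, was at 232 ± 41.0 normalized counts per kilobase (SD, n = 11) and Fcgr3 at 189 ± 30.7 (SD, n = 11). Their ranges overlapped, from 180 to 295 for Fcer1g and from 148 to 234 for Fcgr3. Fcgr1, the high-affinity receptor, was at 25.4 ± 3.46 per kilobase (SD, n = 11). Fcgr2b has RefSeq transcripts of 1462 and 3544 bases, and came to 53.4 ± 9.61 per kilobase with the shorter and 22.0 ± 3.96 with the longer (SD, n = 11), so that its order relative to Fcgr1 depended on the transcript assumed. Fcgr4 was far below the others at 3.14 ± 1.01 per kilobase (SD, n = 11). In rNLS8 mice the order was similar, with Fcer1g at 300.5 ± 97.1, Fcgr3 at 249 ± 65.3, Fcgr1 at 53.4 ± 17.6, Fcgr2b between 26.5 ± 7.01 and 64.2 ± 17.0, and Fcgr4 at 9.19 ± 5.95 normalized counts per kilobase (SD, n = 10).

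**Figure D1:**
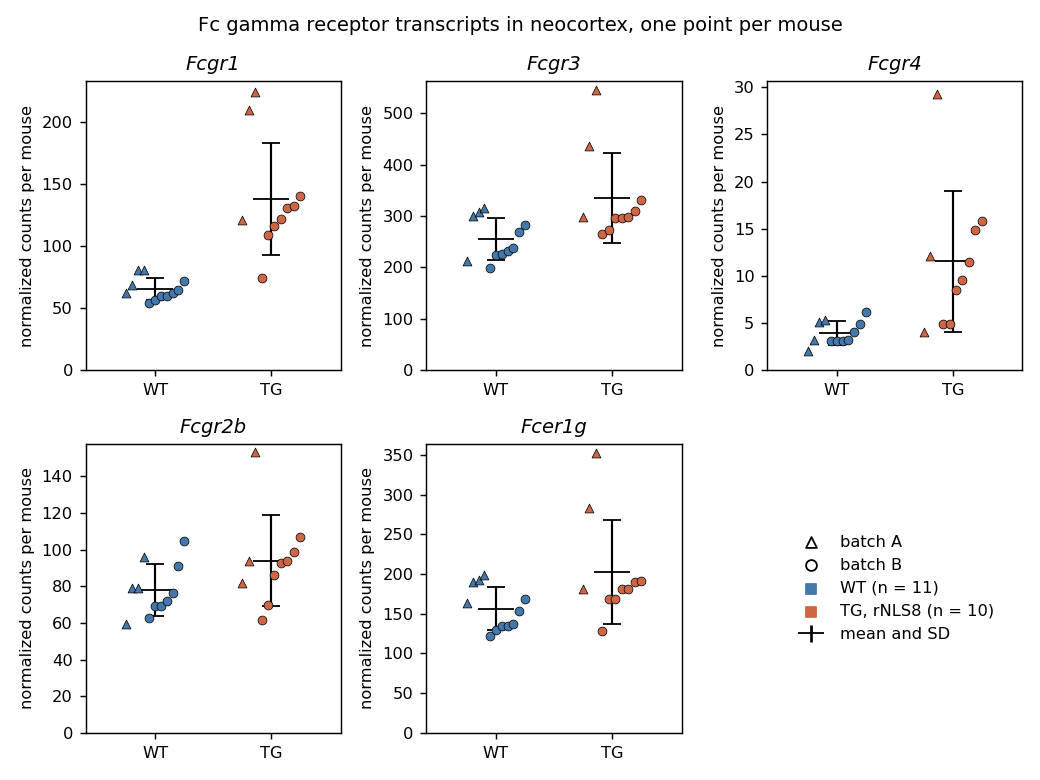
Normalized counts of the 5 members in each mouse (vertical axis, from 0) for WT and TG mice, with triangles for batch A, circles for batch B and bars for mean and SD. Fcgr1 separates the genotypes except for 1 TG mouse at 74.5, while the WT and TG mice overlap for Fcgr3, Fcgr4, Fcgr2b and Fcer1g.

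The second question was which members differed between rNLS8 and wild-type mice. Counts were compared by edgeR's quasi-likelihood test with batch as covariate, with Benjamini-Hochberg adjustment over all genes tested and a threshold of 0.05. Fcgr1, Fcgr3 and Fcer1g were higher in rNLS8 mice, which was 3 of the 4 tested members. Over all genes tested, 23.0% were higher, 21.7% were lower and 44.7% differed in either direction. Fcgr2b missed the threshold. Fcgr4 was tested without the filter, where it was higher as well. Without both T60303 and T61340, the same 3 members were called, with log2 fold changes of 0.90 for Fcgr1, 0.27 for Fcgr3 and 0.24 for Fcer1g, against 0.15 for Fcgr2b and, without the filter, 1.12 for Fcgr4. Fewer cells of a type and less RNA per cell cannot be told apart in such bulk samples, and the same holds for more.

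Fcgr1 binds monomeric immunoglobulin G with high affinity. It was measured at 54.5 normalized counts in the lowest WT mouse, 62.6 at the median and 81.1 in the highest. In TG mice the lowest value was 74.5, the median 126 and the highest 225. In 9 of 10 TG mice Fcgr1 was above every WT mouse, and the exception was T_70267 of batch B. The mean was 65.8 ± 8.97 (SD, n = 11) in WT and 138 ± 45.5 (SD, n = 10) in TG mice. The log2 fold change was 1.08 (standard error 0.12, 95% interval 0.84 to 1.32), a 2.11-fold difference with an edgeR adjusted p of 6.40e-08. Within each batch the genotypes did not overlap. In batch A the WT mice lay between 62.6 and 81.1 and the TG mice between 121 and 225, and in batch B the WT mice lay between 54.5 and 72.0 and the TG mice between 74.5 and 141. Over all genes tested, every TG mouse was above every WT mouse in 13.1% within batch A, 8.34% within batch B and 3.85% with both batches together. Fcgr1 was the only member without overlap within a batch.

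Fcgr3 is a low-affinity activating receptor that binds immune complexes. It had 199 normalized counts in the lowest, 237 in the median and 315 in the highest WT mouse, against 265, 299 and 545 in TG mice. The groups overlapped, although all 10 TG mice were above the WT median, and 3 of 10 were above every WT mouse. The mean was 255 ± 41.3 (SD, n = 11) in WT and 335 ± 87.9 (SD, n = 10) in TG mice. On the log2 scale the difference was 0.41 (standard error 0.092, 95% interval 0.22 to 0.60, edgeR adjusted p = 0.00087), or 1.32-fold.

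Fcgr4 is an activating receptor known from monocytes, neutrophils and macrophages that binds immunoglobulin G2a, G2b and, in C57BL/6 mice, G2c. It was close to the limit of detection, with 42 counts over all WT mice and 121 over all TG mice. WT mice had 2.09 normalized counts at the lowest, 3.21 at the median and 6.22 at the highest, against 4.08, 10.5 and 29.3 in TG mice. In 7 of 10 TG mice the value was above every WT mouse, and the other TG mice lay within the WT range. Without the filter, over 35145 genes of which 12.7% were higher in TG mice, the log2 fold change was 1.55 (standard error 0.31, 95% interval 0.92 to 2.19, edgeR adjusted p = 0.00025). When the filter took batch into account as well, a choice made after the data were seen, Fcgr4 was tested and its log2 fold change was 1.54, but it passed that filter only through TG mice, since no WT mouse had more than 6 counts, so this value is no further support. Mouse T60303 of batch A was the highest at 29.3. Without it, the log2 fold change of Fcgr4 was 1.23 with an adjusted p of 0.0018 in the same test.

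Fcgr2b is the inhibitory receptor. It ranged from 59.5 to 105 normalized counts in WT mice with a median of 76.2, and from 61.5 to 153 in TG mice with a median of 93.3. Most TG mice lay within the WT range, and 2 of 10 were above it. The mean was 78.0 ± 14.1 (SD, n = 11) in WT and 93.8 ± 24.9 (SD, n = 10) in TG mice. The difference on the log2 scale was 0.27, with a standard error of 0.13 and a 95% interval, not adjusted for the number of genes, from 0.0078 to 0.54. The unadjusted p of 0.0441 became 0.0883 after adjustment in edgeR's quasi-likelihood test, so Fcgr2b was not called. T60303 was again the highest TG mouse, and without it the log2 fold change was 0.16 with an adjusted p of 0.265. Fcgr2b passed the threshold without WT mouse T_69532 (0.33, adjusted p = 0.0337) and without TG mouse T_70261 (0.32, adjusted p = 0.0392).

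Fcer1g encodes the signalling chain that Fcgr1, Fcgr3 and Fcgr4 require at the cell surface. It had 121 normalized counts in the lowest, 153 in the median and 199 in the highest WT mouse, against 128, 182 and 352 in TG mice. The groups overlapped, with 9 of 10 TG mice above the WT median and 2 of 10, T60303 and T61340 of batch A, above every WT mouse. The mean was 157 ± 27.6 (SD, n = 11) in WT and 203 ± 65.4 (SD, n = 10) in TG mice. The log2 fold change was 0.39 (standard error 0.097, 95% interval 0.19 to 0.59, edgeR adjusted p = 0.0019), or 1.31-fold.

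Batches A and B were then compared, since T60303 and T61340, which had the highest values of several members, both belonged to batch A. In batch A alone, where 6.99% of the genes tested were higher in TG mice, the log2 fold change was 1.36 for Fcgr1 (adjusted p = 0.0035), 0.61 for Fcgr3 (adjusted p = 0.0752), 0.58 for Fcer1g (adjusted p = 0.0876) and 0.51 for Fcgr2b, all from edgeR's quasi-likelihood test. Of these, Fcgr1 alone passed the threshold with these 7 mice. In batch B alone, where 19.3% of genes were higher, the log2 fold change was 0.93 for Fcgr1 (adjusted p = 6.88e-06), 0.30 for Fcgr3 (adjusted p = 0.0042) and 0.30 for Fcer1g (adjusted p = 0.0162), which all passed, and 0.16 for Fcgr2b, which did not. Without the filter, Fcgr4 had a log2 fold change of 1.93 in batch A (adjusted p = 0.0205) and 1.31 in batch B (adjusted p = 0.0057). In the same fit of batch A without the filter, Fcgr3 (0.60, adjusted p = 0.0213) and Fcer1g (0.56, adjusted p = 0.0434) passed the threshold as well. Their log2 fold changes were no larger than with the filter, and the test had 35.4 degrees of freedom in place of 11.2 with the same 7 mice. The interaction of genotype and batch, as batch B minus batch A on the log2 scale, was -0.40 for Fcgr1 (95% interval -0.89 to 0.095), -0.28 for Fcgr3 (-0.67 to 0.11), -0.25 for Fcer1g (-0.66 to 0.17) and -0.32 for Fcgr2b (-0.88 to 0.24). None passed the threshold, with adjusted p-values between 0.877 and 0.880 in edgeR's quasi-likelihood test. In the same test 0 of the 18248 genes passed, and 1030 had an unadjusted p under 0.05.

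**Figure D2:**
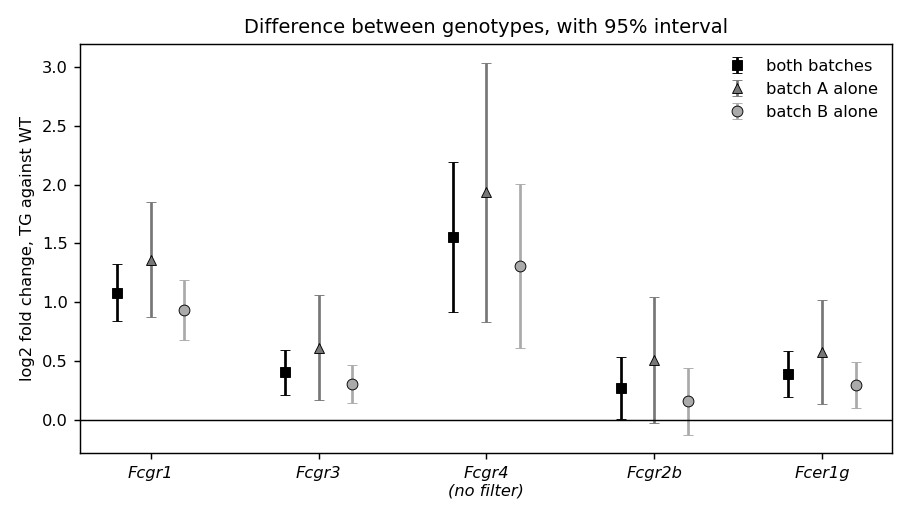
Log2 fold change of each member, TG against WT (vertical axis), with its 95% interval, for both batches together (squares), batch A (triangles) and batch B (circles), Fcgr4 without the filter. The interval of Fcgr1 lies above 0 in each fit, from 0.68 at the lowest in batch B, and that of Fcgr2b reaches 0 in each batch.

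The third question was whether the receptors moved in proportion to their partners. The log2 ratio of Fcgr1 to Fcer1g in each mouse lay between -1.57 and -0.99 in WT mice, with a median of -1.20. In TG mice it lay between -0.77 and -0.26, with a median of -0.57. All 10 TG mice were above every WT mouse in this ratio, whereas neither Fcgr1 nor Fcer1g alone separated all mice. Over all genes tested, 0.586% separated the genotypes in this way in their ratio to Fcer1g. The mean difference was 0.67, and it was 0.77 in batch A and 0.60 in batch B. By contrast, the ratio of Fcgr3 to Fcer1g overlapped, with a mean difference of 0.041, and that of Fcgr2b to Fcer1g had a mean difference of -0.090. The ratio of Fcgr4 to Fcer1g was higher by 0.71 on average (0.93 with a prior count of 0.5), with 5 of 10 TG mice above every WT mouse. The ratio of Fcgr1 to the inhibitory Fcgr2b was higher by 0.76 on average, with 6 of 10 TG mice above every WT mouse. The ratio of Fcgr3 to Fcgr2b differed by 0.13 on average, with no TG mouse outside the WT range. For Fcgr4 to Fcgr2b the mean difference was 0.80, with 6 of 10 TG mice above every WT mouse, and it was 1.02 with a prior count of 0.5 in place of 2. These ratios are descriptions without a test.

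**Figure D3:**
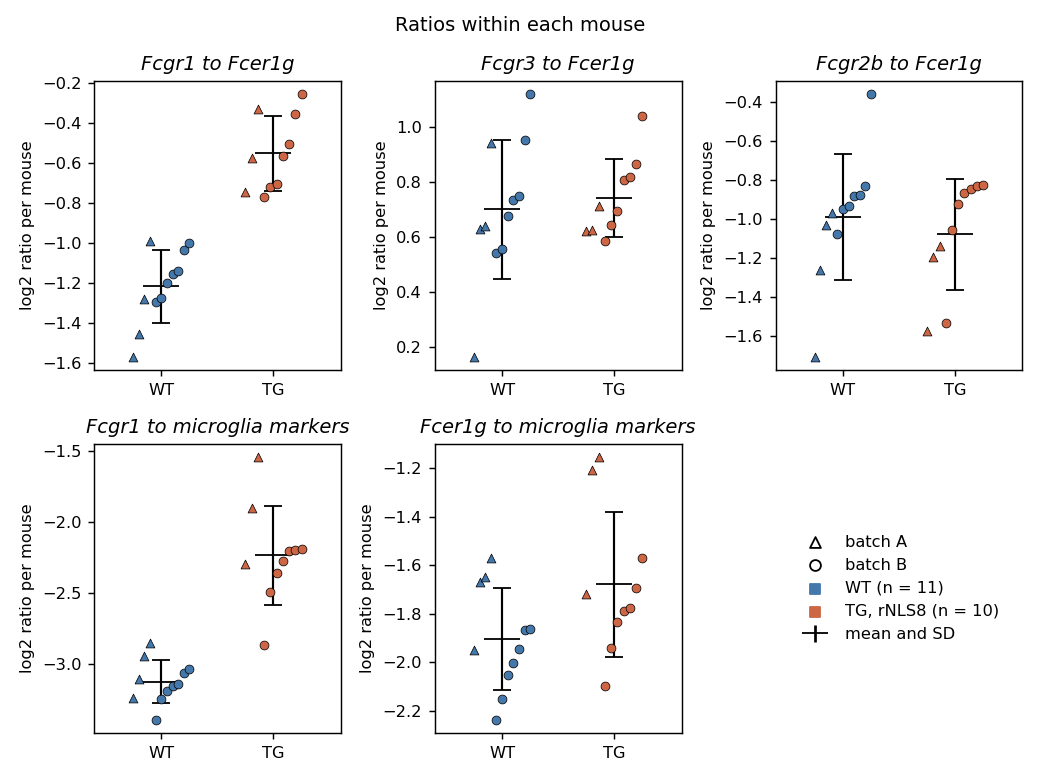
Log2 ratios within each mouse (vertical axes, not starting at 0) for WT and TG mice, with triangles for batch A, circles for batch B and bars for mean and SD. The ratio of Fcgr1 to Fcer1g is at least -0.77 in every TG mouse and at most -0.99 in every WT mouse, and the ratios of Fcgr3 and Fcgr2b to Fcer1g overlap.

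The members were then set beside markers of the cells that carry them. Of 10 microglia markers, all tested, 4 were higher, among them Csf1r, Tmem119 and Aif1, P2ry12 was lower and 5 did not pass the threshold. Their summed level lay between 8198 and 9362 normalized counts in WT mice and between 8688 and 11750 in TG mice. The mean log2 CPM (prior count 2, where CPM scales counts to the library size) of these markers was 4.78 ± 0.086 (SD, n = 11) in WT and 4.88 ± 0.14 (SD, n = 10) in TG mice. With this mean added to the edgeR model as a covariate, the log2 fold change was 0.87 for Fcgr1 (adjusted p = 4.36e-06), 0.22 for Fcgr3 (adjusted p = 0.0444), 0.20 for Fcer1g (adjusted p = 0.103) and 0.086 for Fcgr2b (adjusted p = 0.669), and without the filter 1.06 for Fcgr4 (adjusted p = 0.0302). Fcer1g thus no longer passed the threshold. Some of these markers themselves differed between the genotypes, so the covariate is not a measure of the number of microglia alone. Relative to the mean of the markers, Fcgr1 was higher by 0.89 on the log2 scale, with 9 of 10 TG mice above every WT mouse, Fcgr4 by 0.94 (1.16 with a prior count of 0.5), Fcgr3 by 0.27, Fcer1g by 0.23 and Fcgr2b by 0.14. Of 6 markers of border macrophages, 0 passed the threshold in edgeR, DESeq2 or limma and 1 had an unadjusted p under 0.05 in edgeR, and their sum lay between 171 and 317 in WT and between 193 and 373 in TG mice. The 5 monocyte markers summed to between 6.11 and 23.2 normalized counts in WT and between 11.8 and 62.4 in TG mice, and the only one tested, Ly6c2, was not called. Of those too low to be tested, Plac8 ranged from 0 to 5.16 in WT and from 4.78 to 32.1 in TG mice, and Ccr2 from 1.04 to 7.37 in WT and from 3.92 to 12.1 in TG mice. These levels were on the scale of Fcgr4, and their part in the differences of the members was not tested. The markers of neutrophils, mast cells, NK and T cells, and B and plasma cells were all too low to be tested, with sums of at most 35.5 normalized counts in any mouse. Markers of cortical neurons, summed, lay between 108042 and 135800 in WT and between 81324 and 107008 in TG mice, so every TG mouse was below every WT mouse. Neuronal transcripts were abundant in every mouse, with 1 of 6 markers higher and 3 lower in TG mice. The part of this shift in the differences of the members was not tested.

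Of the 60 genes of the pathway around the receptors, 33 were tested, 13 were higher and 4 were lower, against 23.0% higher and 21.7% lower over all genes. Their median log2 fold change was 0.25, and that of all genes tested was -0.00067. In the activating branch, 6 of 15 tested genes were higher and 0 were lower with edgeR, where 1 had an unadjusted p under 0.05 in that direction, and DESeq2 called 1 lower. Lat2, an adaptor of immune receptors, was at 34.2 ± 6.29 normalized counts (SD, n = 11) in WT and 58.9 ± 14.8 (SD, n = 10) in TG mice, and 8 of 10 TG mice were above every WT mouse (log2 fold change 0.80, edgeR adjusted p = 5.76e-06). The GTPase Rac2 was higher by 0.55 and its exchange factor Vav1 by 0.42 on the log2 scale. In batch A alone these differences were 0.80 and 0.84, and in batch B alone 0.42 and 0.21. The kinase Syk, which binds the phosphorylated ITAM, was not called (log2 fold change -0.16, standard error 0.11, adjusted p = 0.254).

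In the inhibitory branch, 3 of 7 tested genes were higher and 2 were lower. Ptpn6, which encodes the phosphatase SHP-1, was at 82.5 ± 9.40 (SD, n = 11) in WT and 129 ± 26.2 (SD, n = 10) normalized counts in TG mice, without overlap (log2 fold change 0.65, edgeR adjusted p = 1.28e-05). The adaptor Dok1 was higher by 0.38 on the log2 scale (0.36 in batch A alone and 0.39 in batch B alone, neither past the threshold), and the phosphatase gene Inpp5b by 0.25, and the adaptor Dok3 was lower, with a log2 fold change of -0.74. Inpp5d, the phosphatase that acts downstream of Fcgr2b, had 326 ± 24.8 (SD, n = 11) normalized counts in WT and 327 ± 48.7 (SD, n = 10) in TG mice (log2 fold change 0.0035, standard error 0.069, edgeR adjusted p = 0.974). Its log2 fold change was 0.32 in batch A alone (adjusted p = 0.147) and -0.15 in batch B alone (adjusted p = 0.0453).

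Among other receptors and adaptors that signal through ITAM motifs, 3 of 4 tested genes were higher. Clec7a, a receptor for fungal glucans with an ITAM-like motif, had a median of 9.28 normalized counts in WT and 55.5 in TG mice, with no overlap and a highest TG value of 265 (log2 fold change 2.98, edgeR adjusted p = 3.14e-08). Trem2, a microglial lipid receptor, was higher by 0.59 and Tyrobp, the ITAM adaptor that Trem2 uses as the Fc receptors use Fcer1g, by 0.53 on the log2 scale. Of other immunoglobulin receptors, 1 of 5 tested genes was higher. This was Trim21, the cytosolic antibody receptor, with a log2 fold change of 1.11 and all 10 TG mice above every WT mouse. Fcgrt, the neonatal Fc receptor that transports immunoglobulin G, was not called (log2 fold change 0.099, adjusted p = 0.181).

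**Figure D4:**
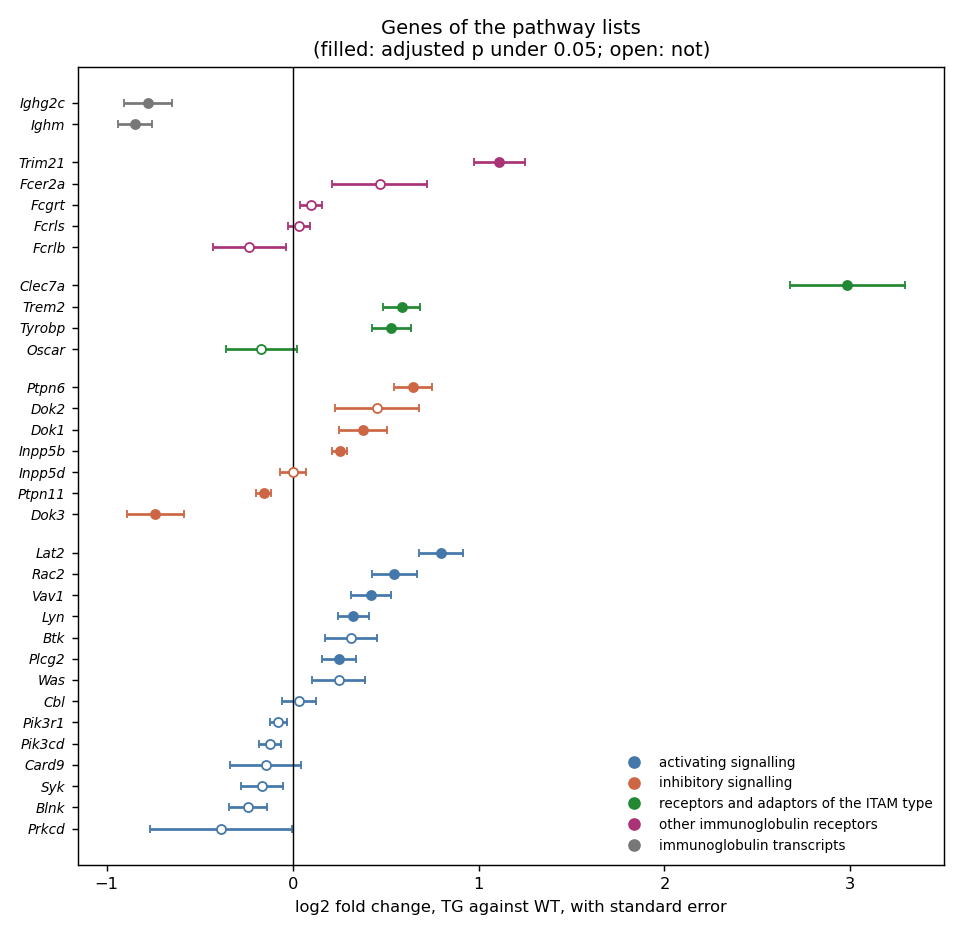
Log2 fold change, TG against WT (horizontal axis), with standard error for tested genes of the pathway lists, coloured by list, filled where the adjusted p was under 0.05. Clec7a is farthest to the right at 2.98, and the immunoglobulin transcripts Ighm and Ighg2c lie to the left of 0.

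Finally, the variation of the members among mice of the same genotype and batch was described. After subtraction of the mean of each genotype and batch, Pearson's r between log2 CPM values over 21 mice was highest for Fcgr1 and Fcer1g at 0.73 and lowest for Fcgr2b and Fcgr3 at 0.22. Without T60303 the latter was 0.026 and the former still 0.73. Points of 1 mouse share a library, its depth and its RNA quality, so these are descriptions without a test. Among 14583 genes with at least 50 counts on average, Trem2 (r = 0.89), Rnaset2a (0.86) and Cd63 (0.85) were most like Fcer1g. For Fcgr2b these were Pxdc1 (0.79), Cd83 (0.78) and Spp1 (0.78), or 0.77, 0.75 and 0.72 without T60303. For Fcgr4 these were Irf9 (0.81), Ifit3b (0.78) and Trim12c (0.77), or 0.76, 0.73 and 0.68 without T60303. Irf9 and Ifit3b are known interferon-response genes, and Fcgr4 was close to the limit of detection. For Fcgr3 the genes were Rps12 (0.87), Rpf1 (0.86) and Rps12-ps3 (0.85), and for Fcgr1 they were Gm13841 (0.85), Washc3 (0.84) and Rpl21-ps15 (0.82). All of these are the highest of many correlations, so their r is high in part by selection. Reads of Rps12-ps3 and Rpl21-ps15, as pseudogenes, may be shared with their parent genes.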

How the data were processed

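Bulk RNAseq of neocortex was analysed for 21 mice, with genotype, batch and mouse number from the labels. Per the labels, reads were pairs of 100 bases, and per the methods of the study RNA had a RIN above 7 and reads were aligned to GRCm38. Those methods name brain cortex as the tissue, while a figure legend of the study names hippocampus for its rNLS8 mice. The submitters' processing notes name HISAT, HISAT2, Bowtie, Bowtie2 and RSEM without roles, and the counting settings are not given in the sources used here. The table deposited by the authors holds whole, unnormalized read counts for each gene symbol. Of 48474 entries, 13329 had no count and 2553 were further copies of a symbol, none of them of a member.

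Counts were tested in R 4.3.3 with edgeR 4.0.16 (filterByExpr by genotype, minimum count 10, minimum total 15, TMM, quasi-likelihood test with batch, two-sided, Benjamini-Hochberg over 18248 genes, threshold 0.05). Fcgr4 failed the filter, so its value was taken from the fit without one, a choice made after the data were seen. Standard errors were derived from the fold change and F statistic, and intervals from the t distribution with the test's degrees of freedom. Total counts per mouse were 20700912 to 22263809, and reads without molecular identifiers are not independent molecules. Each replicate was a mouse. Alternatives were DESeq2 1.42.0 with and without batch, limma 3.58.1 on log2 CPM, other normalizations and filters, each batch, no copies, a microglia covariate and leaving out mice. The tests were checked on simulated counts.

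The members and lists were chosen with earlier results of these data known. Named besides the members were, of each pathway list, up to 4 called genes, by absolute log2 fold change, with a mean of at least 20 counts, Tyrobp, Syk, Inpp5d and Fcgrt, the 3 genes most correlated with each member, and Tardbp. Some genes of the marker and immunoglobulin lists were named outside this rule. Lengths were those of GENCODE transcripts with a RefSeq match. The planned search of protein motifs was not run. Some genes that the rule or the lists include are counted but not reported here by name. Promoters were RefSeq's for GRCm38.p6, with 1 or, for Fcgr3, 2 entries for each of the 5 members.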

Additional observations from a re-analysis of the deposited data

Results flagged for a closer look

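Among the 10 TG mice, the gap between the highest or lowest mouse and its neighbour, as a share of the whole range, was compared with Dixon's 95% critical value. This was done for 19 quantities, the members and summed lists, and 3 passed, where 0.95 would pass by chance with normally distributed values of a single group. The mice came from both batches and the quantities are correlated, so these numbers do not show an excess over chance. In Fcgr2b the gap was 0.501 of the range, as T60303 had 153 normalized counts and the next TG mouse 107. In Fcgr4 it was 0.535, with T60303 at 29.3 and the next at 15.8. In the sum of endothelial markers it was 0.468, with T_70267 at 3309 and the next at 3707 normalized counts.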

How the results depend on the processing

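Fcgr1 was called in all 36 alternatives (log2 fold change 0.87 to 1.36) and Fcgr4 in all 33 of its own without the filter (1.06 to 1.93). Fcgr3 lost its call in batch A alone (0.61). Fcer1g lost it in batch A alone (0.58) and with the microglia covariate (0.20). In batch A without the filter both were called, at log2 fold changes no larger than with it and with more degrees of freedom in the test. Fcgr2b gained a call when scaled by library size only (0.35), which also moved the median of all genes by 0.076, and ranged from 0.16 to 0.33 as single mice were left out. As single mice were left out, the interaction lay between -0.49 and 0.0038 for Fcgr2b, -0.47 and -0.018 for Fcer1g, -0.48 and -0.063 for Fcgr3, and -0.63 and -0.24 for Fcgr1, with no call. Without T60303 it was 0.0038 for Fcgr2b, -0.018 for Fcer1g and -0.063 for Fcgr3, and without T61340 it was -0.24 for Fcgr1. In batch A alone 2195 genes were called, 1298 of them higher, with 1 member higher and 1 pathway gene lower, and in batch B alone 7 pathway genes were lower. These fits hold fewer mice, and the cause was not tested. Of the named genes without a call, Syk was at 0.064 in batch A alone. Inpp5d was at -1.23e-05 with DESeq2 without batch, -0.0019 with limma, -0.15 in batch B alone (adjusted p = 0.0453 from edgeR) against 0.32 in batch A alone (adjusted p = 0.147), -0.086 without both T60303 and T61340, -0.096 with the microglia covariate, and -0.061 to 0.031 as single mice were left out, and Fcgrt was called when scaled by library size only (0.17). Dok1 lost its call in 5 alternatives at 0.31 to 0.39, Vav1 with the microglia covariate (0.28), and Rac2 (0.80), Dok3 (-0.73) and Ighg2c (-0.54) in batch A alone. No paired analysis was possible because the mouse numbers are not shared between genotypes. Fcgr4, at 2 to 6 counts in each WT mouse, is limited by depth.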

Other observations

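Transcripts of immunoglobulin chains were measured too, of which Ighg2c encodes a heavy chain of immunoglobulin G and Ighm that of immunoglobulin M, which Fc gamma receptors do not bind. Of 10 listed genes, 2 were tested, and both heavy chain genes were lower in TG mice, with no TG mouse above the WT median. Ighm had 702 ± 110.1 normalized counts (SD, n = 11) in WT and 389.7 ± 54.8 (SD, n = 10) in TG mice (log2 fold change -0.85, edgeR adjusted p = 6.79e-08). Ighg2c had 80.2 ± 19.5 (SD, n = 11) and 46.7 ± 6.91 (SD, n = 10) (log2 fold change -0.78, adjusted p = 3.05e-05). The light chain gene Igkc and the B cell gene Cd79a had 90 and 132 counts over all 21 mice, against 11500 of Ighm.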
